A study of Mus musculus with 16 samples.

Results

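Fetal mouse cortex from pregnancies in which only the mother was exposed to ethanol was set against cortex with neither parent exposed, in 8 of the 16 total RNA libraries of the series. The 4 maternal libraries came from 2 male and 2 female samples with the treatment label Maternal EtOH, and the 4 control libraries from 2 male and 2 female samples labelled Control. The other 8 libraries came from fetuses with an exposed father (paternal, 4 libraries) or both parents exposed (dual, 4 libraries). All tissue was taken at gestational day 16, so every fetus of the 8 libraries shared stage and tissue label and differed by label in sex and maternal ethanol. The strain, the dose and timing of ethanol, and whether replicates were separate fetuses or litters do not appear in the sources used. The p-values thus rest on the spread among these 8 libraries, part of which may be technical.

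Ethanol is oxidised to acetaldehyde by alcohol dehydrogenases, by catalase and by a microsomal cytochrome, and acetaldehyde is cleared to acetate by aldehyde dehydrogenases. Some of the same dehydrogenases make retinoic acid, a morphogen of the developing forebrain. Late in mouse gestation the cortex still holds dividing radial glia and intermediate progenitors beside newly placed deep-layer and upper-layer neurons. A dissected cortex can carry its meninges, vessels and pieces of choroid plexus, hippocampus, striatum or diencephalon. In bulk RNA, fewer cells of a type and less RNA per cell cannot be told apart.

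Summed counts ran from 16286018 to 16745089 in male maternal and from 17775454 to 19966696 in male control libraries, and from 32787205 to 33489644 in female maternal and from 33018511 to 33285724 in female control libraries, so sex and depth went together. Counts of the X-inactivation RNA Xist were 16664 to 27730 in females and 2 to 21 in males, and the sum of 4 Y-linked genes was 0 to 2 in females and 2863 to 3863 in males, in keeping with every sex label. Gene IDs without a symbol took 8.49% of counts in male control replicate 2 and 1.96% to 4.69% in the other 7. Markers of cortex were detected in every library. Neurod6, a helix-loop-helix factor of cortical excitatory neurons, had 383, 404, 372 and 454 CPM (counts scaled to library size by TMM) in maternal libraries, against 362, 348, 435 and 329.96 CPM in controls. Here and below the 4 values of a group are those of male replicates 1 and 2 and then female replicates 1 and 2. Emx1, a homeobox factor of the dorsal forebrain, had 17.1, 15.1, 16.3 and 15.6 CPM in maternal and 11.1, 11.9, 19.03 and 14.5 CPM in control libraries.

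Across the 20688 genes tested, 0 differed between maternal and control cortex at an adjusted p under 0.05 (edgeR quasi-likelihood test with sex as a term, background 0%). At an unadjusted p under 0.05 there were 473 genes (2.29%), 234 of them higher (1.13%) and 239 lower (1.16%) in maternal cortex, where 5% would be the share if no gene differed and the p-values were exact. DESeq2 called 1 gene, the brain RNA Bc1. The median log2 fold change over all genes was 0.01. All 4 maternal libraries lay above all 4 controls for 176 genes (0.851%) and below them for 152 (0.735%). For 12041 genes (58.2%) the gene's own 95% interval lay inside 1.5-fold in either direction, as it did for 6098 of the 6133 genes with a mean log2 CPM above 5. The median standard error of a log2 fold change was 0.15 over all genes and 0.08 over those 6133. Without female control replicate 1 the count of called genes was 6 (Meg3, Ttr, Snhg11, Chrna4, Smc4 and Bc1), and without either male control it was 1.

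The 12 genes of smallest p in each direction, with the same sign in both sexes, are described next. They were picked by p, and every adjusted p in this comparison was 1.0 by edgeR. Among the 12 higher genes only Slc7a2, a transporter of cationic amino acids, had all 4 maternal libraries above all 4 controls, and 8 of the 12 were free of overlap within each sex (background 1.99%). Among the 12 lower genes 7 had all 4 maternal libraries below all 4 controls, and 8 were free of overlap within each sex (background 1.74%). These counts describe genes chosen from the same values.

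Bc1, a small cytoplasmic RNA of rodent neurons made by RNA polymerase III, had the smallest p (0.00013). It held 64.2, 55.2, 2.04 and 1.67 CPM in maternal libraries, against 36.0, 40.2, 0.647 and 1.18 CPM in controls. Within each sex both maternal libraries were higher, while the sexes differed far more than the exposures, with 21 to 68 counts in each female library and 698 to 1020 in each male one. The log2 fold change with sex as a term was 0.75 ± 0.14 (SE, n = 4 each). DESeq2 gave an adjusted p of 0.0096 for it. A like gap between the sexes was present with paternal exposure, where Bc1 had 52.1 and 52.0 CPM in males and 2.85 and 1.72 CPM in females, scaled over all 16 libraries. In these libraries sex goes with depth, so sex, depth and other differences between libraries cannot be told apart in that gap. Its start is shown because it was the only gene DESeq2 called over both sexes. The RefSeq window of 250 bases before to 50 after the start (GRCm38.p6, chr7:144914220-144914519, plus strand) reads as follows, with capitals for a match to the consensus of the A box of polymerase III promoters, searched on both strands, 14 bases after the start.
Bc1: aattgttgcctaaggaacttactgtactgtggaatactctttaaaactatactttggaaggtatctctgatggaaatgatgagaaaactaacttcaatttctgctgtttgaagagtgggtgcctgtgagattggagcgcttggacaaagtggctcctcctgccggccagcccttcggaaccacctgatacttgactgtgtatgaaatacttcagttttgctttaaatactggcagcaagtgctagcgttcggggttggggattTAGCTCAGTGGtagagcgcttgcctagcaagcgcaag
A match to that consensus occurs in 11.8% of the 32851 RefSeq windows of that length, so the match is a description of the sequence only.

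H19, a maternally expressed imprinted long RNA, had 229, 147, 145 and 127 CPM in maternal libraries, against 139, 133, 72.7 and 101 CPM in controls. The groups overlapped through female maternal replicate 2, which lay below both male controls, and female control replicate 1 was lowest. The log2 fold change was 0.56 ± 0.13 (SE, n = 4 each). Slc38a4, an imprinted neutral amino acid transporter, had 7.49, 8.90, 5.05 and 4.89 CPM in maternal and 4.72, 5.59, 2.43 and 4.23 CPM in control libraries, and its log2 fold change was 0.62 ± 0.18 (SE, n = 4 each). Txnip, a glucose-responsive inhibitor of thioredoxin, had 65.6, 54.9, 49.5 and 50.3 CPM in maternal libraries, against 56.4, 43.4, 38.5 and 35.7 CPM in controls. It was higher in both maternal females than in any female control, and male maternal replicate 2 lay below male control replicate 1. Its log2 fold change was 0.35 ± 0.09 (SE, n = 4 each).

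Ogn, a leucine-rich matrix proteoglycan of connective tissue, had 20.7, 19.6, 10.2 and 11.7 CPM in maternal libraries, against 15.7, 16.3, 2.59 and 5.73 CPM in controls. Thbd, the thrombin receptor thrombomodulin of vessel walls, had 22.8, 14.9, 11.2 and 9.77 CPM in maternal and 15.8, 15.5, 2.62 and 5.38 CPM in control libraries. Both were separated in females and close or overlapping in males, with the lowest value in female control replicate 1. Without that library the log2 fold change was 0.54 for Ogn against 0.84 with it, 0.51 for Thbd against 0.81, and 0.23 for Slc7a2 against 0.36. The RNA-binding Bicc1 (0.46 ± 0.14) and the Hippo pathway coactivator Wwtr1 (0.28 ± 0.08) were higher on the log2 scale (SE, n = 4 each). So were Mir17hg, host of a microRNA cluster that promotes growth (0.55 ± 0.16), and Bche, butyrylcholinesterase (0.74 ± 0.20). Xist had 833 and 746 CPM in maternal females, against 513 and 603 CPM in control females.

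Among lower genes, Sim1, a helix-loop-helix factor, and Otp, a homeobox factor, both regulators of hypothalamic neuroendocrine neurons, had all 4 maternal libraries below all 4 controls. Sim1 had 2.58, 3.05, 2.88 and 2.92 CPM in maternal libraries, against 7.56, 5.99, 4.34 and 3.17 CPM in controls. Otp had 3.78, 1.59, 3.06 and 4.08 CPM in maternal libraries, against 7.95, 5.07, 4.71 and 5.70 CPM in controls. The log2 fold changes were -0.80 ± 0.22 and -0.88 ± 0.26 (SE, n = 4 each), with the 2 male controls highest for Sim1. The other 8 tested hypothalamic markers ran from -0.16 to 0.29 with no p under 0.05, among them Nkx2-1 at -0.01 and Six3 at -0.16. Hmx3, Hmx2, Barhl1 and Pomc averaged only 0.34 to 0.58 CPM in maternal libraries, with standard errors of 0.45 to 0.98. Those low-count genes could not show a moderate change in either direction. Over all 10 the median was 0.02.

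Zfhx3, a large zinc-finger homeobox factor of differentiating neurons, had 192, 169.8, 225 and 173 CPM in maternal libraries, against 235, 246, 221 and 267 CPM in controls. Only female maternal replicate 1 and female control replicate 1 crossed, and the log2 fold change was -0.35 ± 0.09 (SE, n = 4 each). Prox1, a homeobox factor of hippocampal granule neurons and some interneurons, had 44.1, 37.8, 43.0 and 40.7 CPM in maternal and 44.5, 44.9, 52.2 and 66.0 CPM in control libraries. Its separation in males was slight, and the log2 fold change of -0.32 was -0.21 without female control replicate 2, the library at 66.0 CPM. The 10 tested markers of hippocampus and cortical hem had a median of -0.07, with 3 above 0. Among them only Prox1 had an unadjusted p under 0.05. The clustered protocadherins Pcdhgb5 (-0.39 ± 0.11) and Pcdhga3 (-0.25 ± 0.09), neuronal adhesion molecules, were lower in all 4 maternal libraries, as were Osbp2, an oxysterol-binding protein (-0.25 ± 0.09), and Gpr158, an orphan receptor (-0.38 ± 0.13; log2, SE, n = 4 each). Zdhhc22, a palmitoyl transferase, had a log2 fold change of -0.53 that was -0.34 without female control replicate 2.

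**Figure D1:**
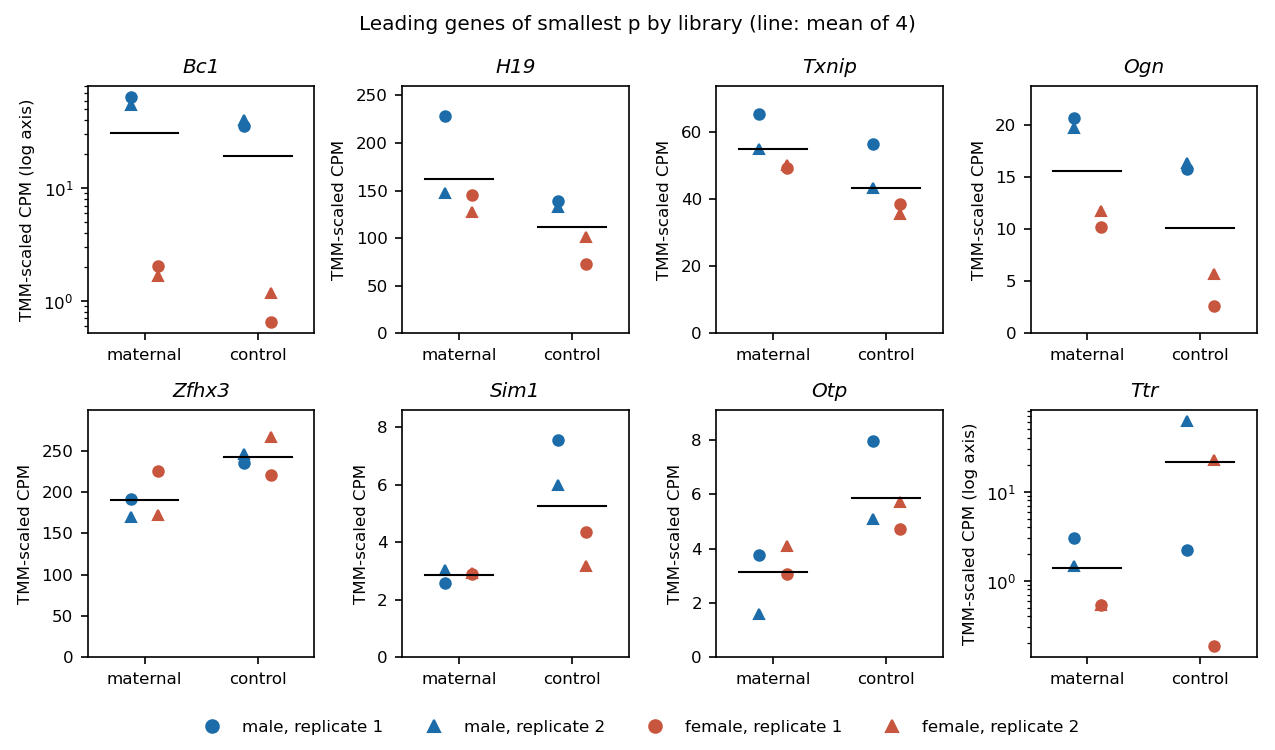
TMM-scaled CPM of 8 of the genes of smallest p, one point per library, maternal left of control, colour by sex and shape by replicate, with the mean of 4 as a line; Bc1 and Ttr have log axes. Bc1 splits by sex far more than by exposure, Sim1 and Otp do not overlap between groups, and the high Ttr values are those of male control replicate 2 (61.9 CPM) and female control replicate 2 (22.8 CPM).

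Of 17 genes of alcohol and aldehyde metabolism 14 passed the filter on low counts, 10 with a log2 fold change above 0 and 4 below, and 0 passed the test (background 0%). The 3 others, Adh1, Adh4 and Cyp2e1, were too low to test. The list's values ran from -0.30 to 0.72 with a median of 0.05, against 0.01 over all genes, and for 11 of the 14 the 95% interval lay inside 1.5-fold. Adh5, an alcohol dehydrogenase that also clears formaldehyde, had 99.7, 106, 92.1 and 92.3 CPM in maternal libraries, against 85.5, 90.1, 109 and 92.8 CPM in controls. Aldh2, the main mitochondrial enzyme for acetaldehyde, had 47.2, 44.8, 45.9 and 42.7 CPM in maternal libraries, against 41.1, 45.3, 48.1 and 53.4 CPM in controls. Cat, catalase, had 63.6, 69.9, 62.0 and 62.4 CPM in maternal libraries, against 66.4, 61.1, 63.8 and 65.9 CPM in controls. All 3 overlapped between the groups, and their 95% intervals on the log2 scale were -0.14 to 0.23, -0.24 to 0.12 and -0.15 to 0.15. The signs of these near-zero values turned under some alternatives. Aldh3a2, which clears fatty aldehydes, was the member of smallest p at 0.20 ± 0.10 (SE, n = 4 each). It had 30.6 and 26.1 CPM in maternal against 21.9 and 22.5 CPM in control males, and 28.2 and 25.7 CPM in maternal against 26.1 and 25.7 CPM in control females.

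**Figure D2:**
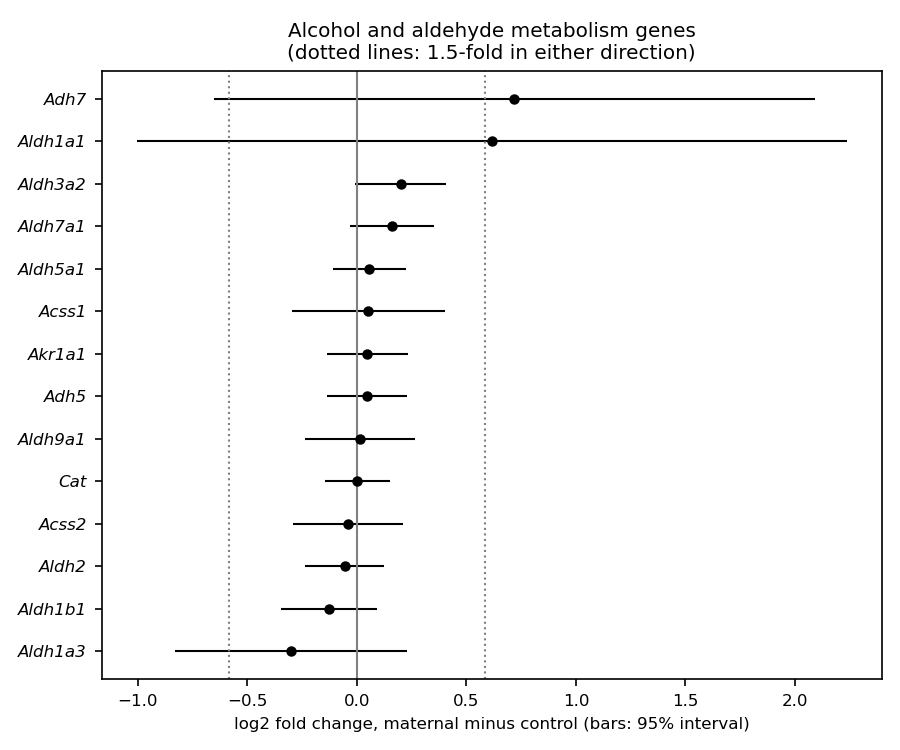
Log2 fold change of maternal over control (points) with 95% intervals (bars) for the 14 tested genes of alcohol and aldehyde metabolism, with dotted lines at 1.5-fold. All intervals but 3 lie between the dotted lines; the exceptions are the low-count Adh7, Aldh1a1 and Aldh1a3.

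Retinoic acid genes had a median of 0.06, with 11 of 18 above 0 and 0 called. Rxra, a retinoid receptor, had 22.8, 23.1, 22.3 and 21.9 CPM in maternal libraries, against 18.8, 19.4, 21.1 and 21.4 CPM in controls, a separation without overlap at a log2 fold change of 0.16 ± 0.09. Aldh1a2, the retinaldehyde dehydrogenase of meninges, had 14.9, 10.7, 9.94 and 10.01 CPM in maternal and 10.7, 10.8, 0.708 and 7.87 CPM in control libraries. Its log2 fold change was 0.73 ± 0.43, and 0.27 without female control replicate 1. Crabp1, a retinoid carrier, was at -0.18 ± 0.11 (SE, n = 4 each for all 3).

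Stress genes showed no call. Of 22 genes of the integrated stress and unfolded protein responses 18 lay above 0, with a median of 0.14 (0.20 in males, 0.04 in females). The median was 0.05 without male control replicate 2. Sesn2, a stress-induced regulator of mTOR, had 11.02, 9.27, 6.52 and 8.28 CPM in maternal libraries, against 10.3, 3.86, 5.51 and 5.201 CPM in controls. Atf5, a stress-induced transcription factor, had 44.7, 21.0, 28.3 and 21.9 CPM in maternal and 25.2, 15.4, 25.3 and 22.8 CPM in control libraries. Phgdh, the entry enzyme of serine synthesis, had 72.3, 50.2, 50.9 and 50.9 CPM in maternal and 44.8, 38.1, 61.3 and 44.4 CPM in control libraries. Male maternal replicate 1 was the highest of the 4 maternal libraries for all 3. Without it the log2 fold change of Atf5 was 0.05 against 0.36 with it, and that of Phgdh 0.07 against 0.25; Ddit3, an apoptotic stress factor, was at 0.16 against 0.28. Antioxidant enzymes (median 0.06), p53 and apoptosis genes (0.04) and glycolysis and hypoxia genes (0.05) were nearer to the median of all genes. In these lists the p53 target Ccng1 (0.18 ± 0.08) and the hypoxia-induced Ndrg1 (0.16 ± 0.07) had unadjusted p-values under 0.05 and no adjusted one.

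Meningeal and fibroblast markers lay above 0 in all 18 cases, with a median log2 fold change of 0.44, and 0 passed the test. Their summed level was 707 to 1172 CPM in maternal libraries and 330.3 to 926 CPM in controls. The low end was female control replicate 1, whose median log2 CPM over the list was 1.72 against 3.60 to 3.96 in the other 3 controls. The median fold change was 0.14 without that library and 0.82 without female control replicate 2. Foxc1, a regulator of meningeal development, had 20.9, 20.002, 17.8 and 17.3 CPM in maternal libraries, against 19.3, 17.3, 7.27 and 14.8 CPM in controls. Dcn, the matrix proteoglycan decorin, had 36.1, 25.5, 19.4 and 17.9 CPM in maternal and 26.4, 30.4, 4.13 and 15.5 CPM in control libraries. For both the libraries differed mainly by the 1 low female control. The log2 fold changes without it were 0.18 against 0.42 for Foxc1, 0.16 against 0.51 for Dcn and 0.24 against 0.48 for Cped1. Endothelial and pericyte genes also lay mostly above 0, with 17 of 18 and a median of 0.16, which was 0.02 without female control replicate 1.

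Choroid plexus markers ran the other way, with all 10 tested members below 0 and a median of -0.47. Ttr, transthyretin, the main secreted protein of choroid plexus, had 3.02, 1.46, 0.541 and 0.536 CPM in maternal libraries, against 2.22, 61.9, 0.185 and 22.8 CPM in controls. The controls thus held both the highest and the lowest values, and maternal libraries lay between them. The log2 fold change was -4.08 ± 1.05 (SE, n = 4 each), -2.80 without male control replicate 2 and -2.86 without female control replicate 2. The summed level of the list was 11.3 to 16.1 CPM in maternal libraries and 11.5 to 87.5 CPM in controls. The values 87.5 and 38.0 CPM belonged to male and female control replicate 2, and the other 2 controls had 18.1 and 11.5 CPM. Clic6, a chloride channel of choroid epithelium, had 1.64, 0.610, 0.480 and 1.07 CPM in maternal and 0.674, 4.90, 0.708 and 2.06 CPM in control libraries, and its log2 fold change of -1.05 was -0.32 without male control replicate 2. Otx2, a regulator of choroid plexus and midbrain, was more even, with 4.91, 2.20, 3.09 and 4.05 CPM in maternal and 5.01, 5.65, 5.97 and 4.35 CPM in control libraries. Prlr, the prolactin receptor, did not overlap in males and overlapped in females, with 1.76 and 1.46 CPM in maternal against 3.85 and 3.28 CPM in control males, and 2.34 and 1.76 CPM in maternal against 1.94 and 2.14 CPM in control females.

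Motile cilia genes, a list chosen after their values were seen, had 21 of 23 tested members below 0 and a median of -0.65. Motile cilia are carried by ependymal and choroid epithelium. Their summed level was 60.3, 55.6, 50.5 and 56.6 CPM in maternal libraries, against 73.8, 104, 50.4 and 94.6 CPM in controls. The same 2 control libraries that were high in Ttr were highest here. The median was -0.39 without female control replicate 2 and -0.47 without male control replicate 2. Dnah5, a dynein heavy chain of the outer arm, had 6.04, 6.16, 4.99 and 5.72 CPM in maternal and 8.77, 8.87, 5.48 and 8.96 CPM in control libraries. Wdr66, a protein of the ciliary axoneme, had 3.27, 3.29, 2.40 and 2.18 CPM in maternal and 5.88, 5.88, 2.65 and 4.64 CPM in control libraries. Both were without overlap in males. In females Wdr66 did not overlap, while for Dnah5 female maternal replicate 2 lay above female control replicate 1, the control closest to the maternal values for both genes. The part of choroid or ependymal tissue in these values was not tested.

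Thalamic markers had a median of -0.11, with 10 of 12 below 0. Tcf7l2, a Wnt effector that marks thalamic neurons, had 27.4, 21.4, 26.1 and 24.4 CPM in maternal libraries, against 21.6, 33.9, 25.0 and 69.7 CPM in controls. Its log2 fold change of -0.56 was -0.11 without female control replicate 2, the library at 69.7 CPM. Lhx9, another thalamic regulator, had 23.4 CPM in that library and 9.85 to 15.98 CPM in the other 7. Calb2, calretinin, a marker of Cajal-Retzius cells and some interneurons and thalamic cells, also peaked there, at 23.8 CPM, against 10.5 to 17.2 CPM in the rest, and its log2 fold change of -0.45 was -0.27 without it.

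**Figure D3:**
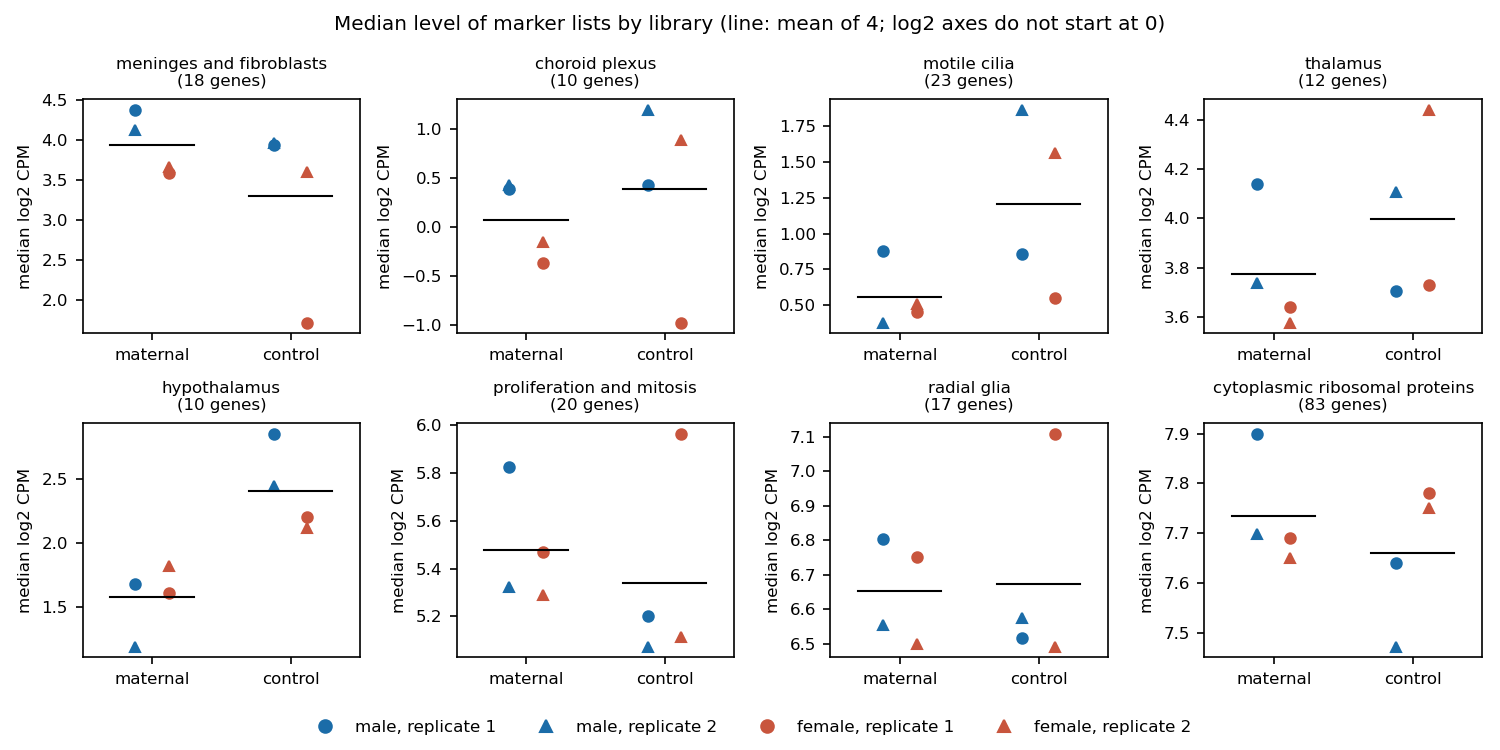
Median log2 CPM of 8 marker lists in each library, maternal left of control, colour by sex and shape by replicate, with the mean of 4 as a line. Female control replicate 1 is low for meninges (1.72) and high for radial glia (7.11) and proliferation (5.96), while male and female control replicate 2 are high for choroid plexus and motile cilia.

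Among progenitors of the cortex itself, radial glia genes had a median of 0.06 with 16 of 17 intervals inside 1.5-fold; males alone gave 0.12 and females alone -0.12. Intermediate progenitor and neurogenic genes had a median of 0.04 with 9 of 12 intervals inside, and its lowest member was at -0.43. Its medians by sex were 0.16 (males) and -0.21 (females). Among neurons, deep-layer genes had a median of 0.02 with 14 of 15 inside. Upper-layer genes had 12 of 13 above 0, a median of 0.07 and all 13 intervals inside. Rorb, a layer 4 regulator, had 126, 124, 131 and 143 CPM in maternal libraries, against 117, 116, 120.1 and 109.9 CPM in controls, without overlap, at 0.18 ± 0.07 (SE, n = 4 each). Tbr1, a deep-layer regulator, had 339, 363, 369.5 and 393 CPM in maternal and 329, 331, 450 and 335 CPM in control libraries. Mitotic genes had a median of 0.08 over 20 genes, with 0.33 in males and -0.23 in females. It was 0.32 without female control replicate 1 and -0.07 without male maternal replicate 1, the libraries with the highest levels in their groups. Microglia genes had a median of 0.03, and oligodendrocyte lineage genes -0.13. The erythroid list had 8 of 10 above 0, with Hbb-bs, an adult beta globin, at 625, 512, 377 and 329 CPM in maternal and 407, 424, 295 and 361 CPM in control libraries. The 2 below 0 were the embryonic globins Hbb-y (-1.24 ± 0.86) and Hba-x (-0.51 ± 0.60; SE, n = 4 each). Hbb-y had 8.81 CPM in female control replicate 1 and 0.447 to 2.01 CPM in the other libraries. Hba-x had 4.19 CPM in that library and 0.461 to 1.51 CPM in the others. The source of these high values was not tested.

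All 30 genes of synapse formation and transmission had intervals inside 1.5-fold, with 25 below 0 and a median of -0.04. GABA-A receptor subunits had 13 of 14 below 0 and a median of -0.11, which was -0.28 in males and 0.05 in females. NMDA and AMPA subunits had 10 of 11 below 0 (median -0.06). Across all genes 45.1% were below 0. Immediate early genes of neuronal activity had 15 of 22 below 0, a median of -0.03 and 10 intervals inside 1.5-fold. Egr1, the only one with an unadjusted p under 0.05, had 5.67, 5.49, 5.77 and 4.65 CPM in maternal libraries, against 9.01, 5.59, 6.498 and 9.75 CPM in controls, at -0.53 ± 0.19 (SE, n = 4 each), and the groups overlapped through male control replicate 2. Klf4 (0.28), Ier2 (0.22) and Nr4a3 (0.16) lay above 0, and Fos (-0.01) and Arc (-0.05) lay near it on the log2 scale. Clustered protocadherins had 37 of 55 below 0 and a median of -0.06, and Pcdhb12 ran against them at 0.78 ± 0.30, with 1.02 to 1.52 CPM in maternal and 0.626 to 0.749 CPM in control libraries. Members of these clusters share exons or close sequence, so their counts are uncertain.

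Imprinted genes as a list had a median of -0.04, with 26 of 43 below 0 and none called. Beside H19 and Slc38a4, unadjusted p-values under 0.05 fell on Igf2 and Cdkn1c (higher) and Zdbf2 and Mest (lower). Igf2, the fetal growth factor that neighbours H19, had 25.7, 18.3, 19.01 and 14.99 CPM in maternal libraries, against 14.7, 14.8, 4.77 and 14.5 CPM in controls. All 4 maternal values exceeded all 4 controls, by little for female maternal replicate 2, and the log2 fold change of 0.70 ± 0.25 was 0.41 without female control replicate 1. That library was also the lowest in meningeal markers. Cdkn1c, an inhibitor of cyclin-dependent kinases, had 71.7, 50.2, 52.975 and 49.4 CPM in maternal and 54.0, 55.3, 39.9 and 41.1 CPM in control libraries. Zdbf2 had 185, 173, 169 and 173 CPM in maternal and 222, 201, 186 and 178 CPM in control libraries. Mest had 183, 158, 169 and 155 CPM in maternal and 177, 172, 206 and 190.1 CPM in control libraries. Meg3, a maternally expressed long RNA, had 459.5, 522, 591 and 473 CPM in maternal libraries, against 750.02, 869, 368 and 712 CPM in controls, so female control replicate 1 was the lowest of all 8. Its log2 fold change was -0.37, and -0.62 without that library (edgeR adjusted p = 0.020). Igfbp4, an IGF-binding protein, had 71.1, 71.0, 76.8 and 72.0 CPM in maternal and 61.5, 58.0, 61.7 and 71.5 CPM in control libraries.

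Cytoplasmic ribosomal protein genes had 79 of 83 above 0, against 54.9% of all genes, yet with a median of 0.09 and 79 intervals inside 1.5-fold. Males had a median of 0.21 and females one of -0.07, and leaving out male maternal replicate 1 gave 0.01. Nuclear-encoded oxidative phosphorylation genes had a median of 0.02 over 76 genes, 0.13 in males and -0.10 in females, with all 76 intervals inside. Mitochondrially encoded mRNAs had a median of 0.05, and mt-Nd6, the only protein-coding gene of the light strand, had 326, 227, 125 and 148 CPM in maternal against 205, 282, 109.8 and 74.5 CPM in control libraries. Cholesterol synthesis (median -0.02, 17 of 22 below 0), folate metabolism (0.05), DNA methylation (0.04), interferon response (0.10), hedgehog (0.05) and IGF axis genes (0.05) had 0 members called. Of the 40 lists without motile cilia (median -0.65), 28 had a median within 0.1 of 0.

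**Figure D4:**
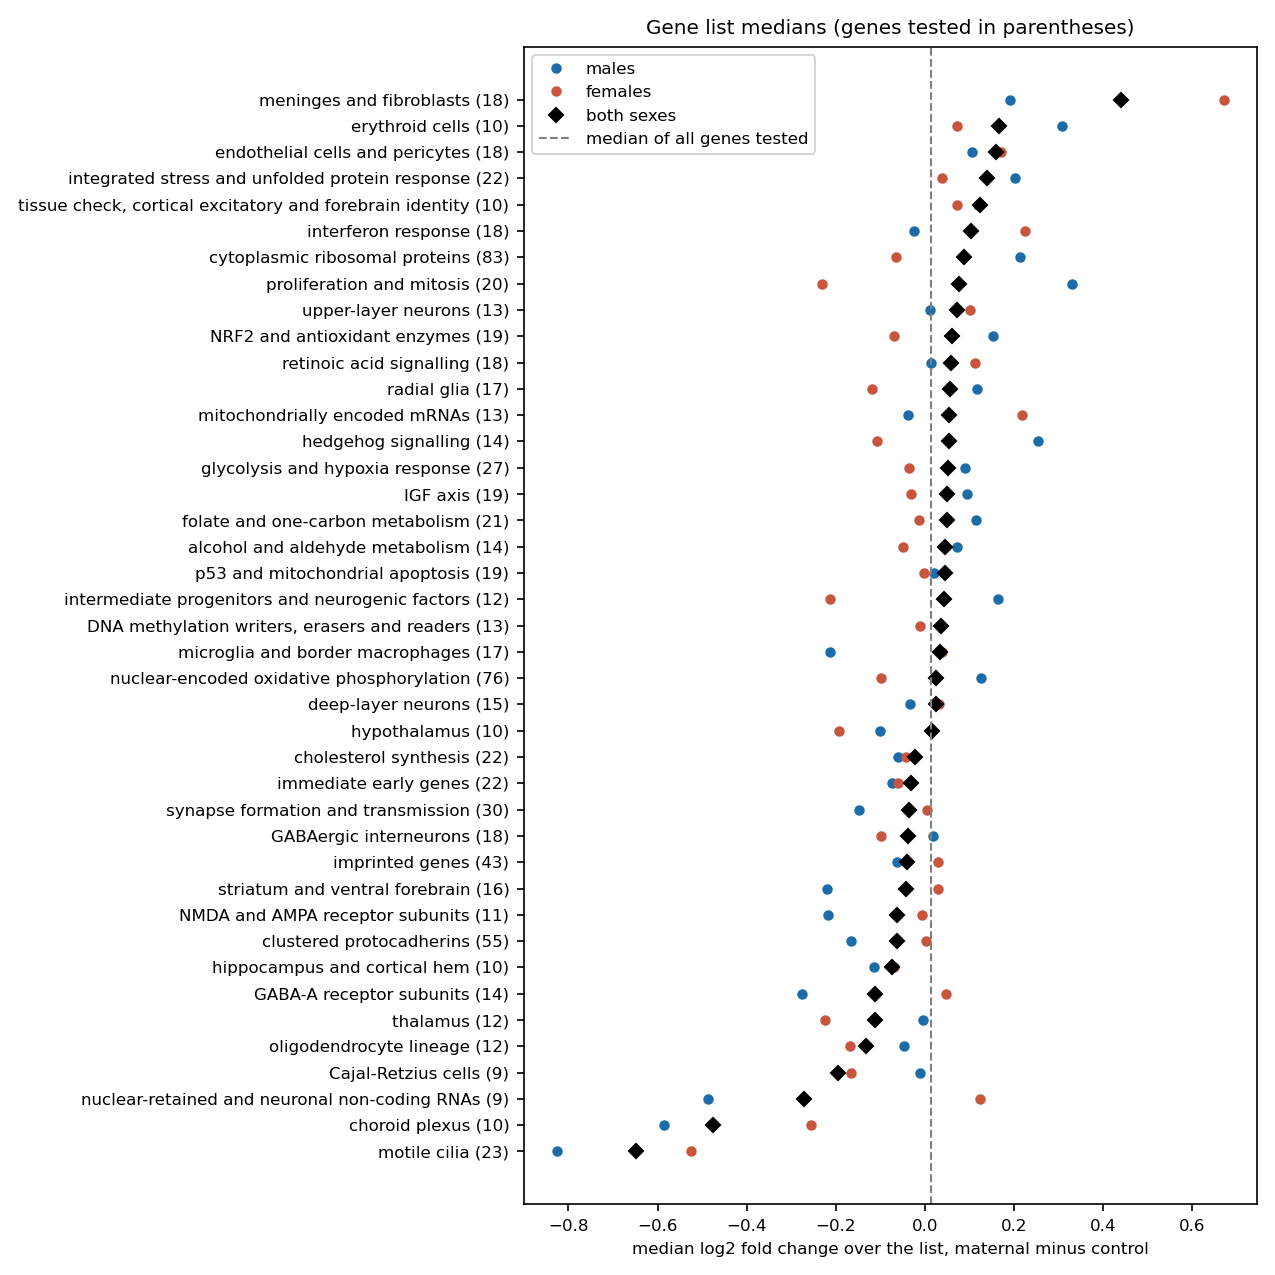
Median log2 fold change of maternal over control for each gene list (black diamonds), with the medians in males and females as coloured points and the median of all genes tested as a dashed line. Meninges lie highest (0.44) and motile cilia lowest (-0.65), and the medians for males and females have opposite signs in 24 of the 40 lists without motile cilia. Each sex has 2 libraries per exposure, that count was not tested, and the share of opposite signs over all genes was not counted.

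Taken by sex, in a fit of all 16 libraries with 21543 genes tested, 0 genes were called in males (1707, 7.92%, at an unadjusted p under 0.05) and 0 in females (1013, 4.7%). DESeq2 called 1 in each, Gm37928 in males (log2 fold change -0.80, adjusted p = 0.033) and Xist in females (0.49, adjusted p = 0.035). The CPM values from here to the end of this section are scaled over all 16 libraries. They differ slightly from those above for the same library. In males the smallest p-values were those of Psmb6, a proteasome subunit, with 92.5 and 86.9 CPM in maternal against 67.5 and 71.4 CPM in control males (log2 fold change 0.37 ± 0.08), and Sgce, an imprinted sarcoglycan, with 27.4 and 28.5 CPM against 37.3 and 38.8 CPM (-0.45 ± 0.10; SE, n = 2 each). In females they were those of Prox1 (-0.50 ± 0.11) and Fam126b, a component of a lipid kinase complex, with 47.0 and 55.1 CPM in maternal against 38.9 and 35.9 CPM in control females (0.45 ± 0.10; SE, n = 2 each). The difference between the sexes was itself tested, and 0 genes passed by edgeR (2124, 9.86%, at an unadjusted p under 0.05) and 14 by DESeq2. Its smallest p was that of Rtcb, an RNA ligase of tRNA splicing. Rtcb had 97.2 and 94.8 CPM in maternal against 82.9 and 80.3 CPM in control males, and 85.6 and 87.4 CPM in maternal against 105 and 102 CPM in control females. The male minus female difference in log2 fold change was 0.49 ± 0.09, with an adjusted p of 0.42 by edgeR. Ldhb, a lactate dehydrogenase subunit, behaved alike in its values, with 122 and 107 CPM in maternal against 92.4 and 87.0 CPM in control males, and 105 and 95.1 CPM in maternal against 129.5 and 112 CPM in control females. Leaving out a library here leaves 1 library in its arm, which is assumed to vary like the other groups. Set against 1 female control in this way, the sex difference had 612 called genes without female control replicate 2 and 6 without replicate 1, and the female comparison had 339 and 232. The male comparison had 6 without male control replicate 2 and 1 without male maternal replicate 2.

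Maternal and paternal exposure were compared in the same fit, and 0 of 21543 genes were called by edgeR (728, 3.38%, at an unadjusted p under 0.05). Of the 24 genes of smallest p above, 0 were called between maternal and paternal libraries, the same as the background of 0%. H19 had 221, 144, 142 and 125 CPM in maternal libraries, against 152, 165, 181 and 121 CPM in paternal ones, and the log2 difference was 0.01 ± 0.13. For Zfhx3 it was 0.09 ± 0.12 and for Txnip 0.06 ± 0.11 (SE, n = 4 each). Ttr had 2.93, 1.43, 0.529 and 0.526 CPM in maternal and 29.9, 14.4, 118 and 1.01 CPM in paternal libraries, a difference of -5.07 ± 1.52. Ddit4, a stress-induced inhibitor of mTOR, had 59.2, 45.9, 52.6 and 52.8 CPM in maternal and 65.4, 58.7, 65.9 and 66.8 CPM in paternal libraries, at -0.29 ± 0.07 (SE, n = 4 each).

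Dual exposure differed from maternal exposure in 1241 of 21543 genes by edgeR (5.76%), 952 higher (4.42%) and 289 lower (1.34%) in dual libraries. The comparison shares the maternal libraries with those above. Rny3, a small Y RNA, had 54.1, 81.3, 62.2 and 73.4 CPM in dual libraries, against 44.8, 32.5, 6.68 and 9.29 CPM in maternal ones, and rose by 1.95 ± 0.22 on the log2 scale. The maternal females were far lower than the maternal males, while the dual females lay between the dual males. Sex, depth and other differences between libraries cannot be told apart here, and the source of that gap was not tested. The gap between exposures was wider in females than in males, a difference that was not tested. Kcnq1ot1, an imprinted antisense RNA whose reads may not be separable from its host gene without strand information, had 163, 133, 241 and 283 CPM in dual and 121, 107, 105 and 125 CPM in maternal libraries. Of 82 ribosomal protein genes 31 fell and none rose. Rps14, for instance, had 237, 273, 202 and 193 CPM in dual and 354, 292, 275 and 289 CPM in maternal libraries. Of 18 endothelial and pericyte genes 7 fell, among them Pecam1, an adhesion molecule of vessel walls, with 20.5, 20.1, 17.7 and 14.6 CPM in dual and 25.9, 26.8, 26.6 and 26.3 CPM in maternal libraries. Of the 24 genes named above for maternal exposure only Pcdhgb5 was called, beside 5.76% of all genes. Its log2 fold change was 0.60 ± 0.10 in dual over maternal libraries (SE, n = 4 each, edgeR adjusted p = 0.002). It had 15.8, 15.8, 28.0 and 24.2 CPM in dual and 11.9, 12.5, 14.2 and 15.1 CPM in maternal libraries. Pcdhgb5 had been picked for low values in these same maternal libraries, which favours a rise over them. The 2 female dual libraries had 0.872% and 0.860% of counts on TEC and sense-intronic genes, against 0.363% to 0.391% in the maternal libraries. Gene IDs without a symbol took 7.16% and 17.8% of counts in the male dual and 1.73% and 1.84% in the female dual libraries. In the maternal libraries they took 2.05% to 4.69%. The part of these differences in the calls was not tested. Each library left out lowered the count, to 1064 without male dual replicate 2 and, for the other 7, to between 389 (without male dual replicate 1) and 820 (without female dual replicate 1).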

How the data were processed

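Total RNA of fetal cortex was sequenced, per the labels, from libraries made with a total RNA kit. The authors deposited raw counts per gene, 1 table for each library. The submitters' processing notes name Trimmomatic, STAR and featureCounts and the build GRCm39 (mm39). The sources used give no versions, annotation release, strand setting or handling of multi-mapped reads, so antisense, overlapping and repeated genes are uncertain. Symbols were matched by ID for 52083 of 55359 gene IDs from a table on another build, so no coordinates of counted genes are given. The remaining 3276 IDs stayed in the fit.

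Genes were kept by filterByExpr (minimum count 10, minimum total 15), TMM-scaled and put through the quasi-likelihood test of edgeR 4.0.16 in R 4.3.3 (glmQLFit, two-sided) as sex plus exposure over the 8 libraries (5 residual and 8.28 prior degrees of freedom). Effects by sex and comparisons with paternal and dual exposure came from 1 fit of 8 group means over 16 libraries (8 residual degrees of freedom). The p-values were adjusted by the Benjamini-Hochberg method over all genes of a comparison and read at 0.05. The edgeR standard errors are the absolute log2 fold change divided by the square root of the F value of that test. The intervals are 95% intervals of single genes, the estimate plus or minus the t quantile times that standard error. Library totals lay between 15336566 and 35218456. Replicates differed by more than counting noise in all 8 groups (median squared difference 1.58 to 4.63, against 0.455 for noise alone). The code was tested on simulated data.

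The genes, the 40 lists and the tests were chosen with earlier results of these data known, and the motile cilia list after their values were seen here. Named genes are the 12 of smallest p per direction that agree in sign between the sexes, average a log2 CPM of 1 or more and carry no predicted-gene symbol, then up to 4 members of smallest p per list, the tissue, sex and alcohol genes, and up to 5 per direction in other comparisons. Genes in no such group, such as those called without a library, and some list members beyond the 4, were named after their values were seen. Some genes that the rule names are not reported here. Of the 24 genes, 17 had a RefSeq promoter window.

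The alternatives comprised DESeq2 1.42.0 and its size factors within edgeR, dropping the filter, a block for the replicate number, 4 group means, all 16 libraries or only those compared, protein-coding genes alone and leaving out each library.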

Additional observations from a re-analysis of the deposited data

Results flagged for a closer look

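In 17 of 210 groups of 4 libraries the highest or lowest library stood apart from the other 3 by the gap test of Dixon. Its threshold flags about 1 of 20 groups of independent values from a single normal distribution. The groups here mix the sexes, the genes and lists are correlated, and some genes were named after their values were seen. That rate is thus only a rough guide. Of the 128 groups of single genes 8 were flagged. Female control replicate 1 was the library set apart in 8 of the 17. Among controls it was low for Dnah5 (5.48 CPM, others 8.77 to 8.96), for Igf2 (4.77 CPM, others 14.5 to 14.8) and for meningeal markers (median log2 CPM 1.72, others 3.60 to 3.96). It was high for Tbr1 (450 CPM, others 329 to 335) and for the median log2 CPM of radial glia (7.11), intermediate progenitor (5.2), mitotic (5.96) and hedgehog genes (5.08). Male maternal replicate 1 was set apart among maternal libraries for Aldh1a2 (14.9 CPM), Phgdh (72.3 CPM) and Cdkn1c (71.7 CPM), and for the median log2 CPM of endothelial (5.40), stress response (5.27) and folate genes (4.62), high each time. Igfbp4 was high in female maternal replicate 1 (76.8 CPM), Pcdhb12 low in male control replicate 1 (0.626 CPM), and the median of upper-layer neuron genes high in female control replicate 2 (7.07 against 7.04).

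In 4 of 105 results examined the maternal libraries of males all lay on the opposite side of their controls from those of females, a difference that was not tested for the 3 lists. With 2 libraries for each sex and exposure such a pattern can arise by chance, and its share over all genes was not counted. The count of 4 is a description only. The male minus female value was 0.279 for ribosomal protein genes (median 0.21 in males and -0.07 in females), 0.225 for oxidative phosphorylation genes and -0.153 for synapse genes. For Adh5 it was 0.334 on the log2 scale, and the edgeR test of that sex difference called no gene.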

How the results depend on the processing

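The count of 0 genes for maternal against control was 1 with DESeq2 and 61 with no filter on low counts, and 0 to 6 when a library was left out (1 without male control replicate 1, Mir6236, and 1 without male control replicate 2, Gm15564). The 61 included genes that the filter keeps, among them Ttr, H19, Xist, Ogn, Bc1, Thbd, Igf2, Meg3, Zfhx3 and Otp. With no filter the log2 fold change of H19 was 0.54 ± 0.08, against 0.56 ± 0.13 with the filter. That of Ttr was -4.09 ± 0.18, against -4.08 ± 1.05 (SE, n = 4 each). The count was 0 with the replicate number as a block. Within a sex, maternal and control libraries of the same number had nearly uncorrelated deviations (correlations -0.0228 in males and 0.00374 in females). Male and female libraries of the same number were not compared in this way, so a link between them was not tested. In males the count was 1 with DESeq2, 160 with no filter and 0 to 6 with a library left out, and in females 1, 165 and 0 to 339. The sex difference had 14, 278 and 0 to 612. In these counts by sex, leaving out a library leaves an arm of 1, assumed to vary like the other groups. Maternal against paternal had 25 with no filter, 1 with only the libraries compared and 0 with any library left out. Dual against maternal had 1931 with no filter and 389 to 1064 with a library left out. The cause of these shifts was not tested. The log2 fold change of Cat turned negative with DESeq2 size factors (-0.013), DESeq2 (-0.0137), no filter (-0.0105), all 16 libraries (-0.014) and protein-coding genes (-0.0197). With a library left out it ran from -0.0514 to 0.0189, that of Adh5 from -0.0186 to 0.111, that of Tbr1 from -0.0476 to 0.111 and that of Aldh2 from -0.109 to 0.00026. Of the other gene values 924 kept sign and side of the threshold and 18 passed it. With 4 libraries a group, the median standard error of 0.15 limits what low-count genes can show.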
